A study of Mus musculus with 24 samples.

Results

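The levels of 8 transcription factor genes of the trophoblast and of the caudal embryo were followed through differentiation of embryonic stem cells with and without G9a, the histone H3K9 methyltransferase encoded by Ehmt2: Cdx2, Cdx1, Cdx4, Gata3, Gata2, Tfap2c, Elf5 and Tead4. They are the 8 rows of the gene table, among 24016 genes, whose symbol is one of these names, and all 8 were above the limit for testing, as were 20624 genes of the table. The cells are female mouse embryonic stem cells of line 16.7 Tsix +/TST. The groups were a G9a knockout made in that line (KO) at day 10, the parental line (WT) at day 10, KO at day 0 and WT at day 0, with 3 total RNA libraries and 1 H3K9ac sample each. Both lines carry the Tsix TST allele, so WT here means the parental line and not an unmodified one. Day 0 cells were undifferentiated, and day 10 cells had been without LIF for 4 days in suspension and 6 days on gelatinized plates. How many KO clones were used, and whether libraries came from separate cultures, is not given in the sources used here, so p-values measure only the spread between these libraries.

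Members of the CDX, GATA, AP-2, ELF and TEAD families act in the trophectoderm or in the trophoblast that comes from it. The trophectoderm is the outer layer of the blastocyst that makes the placenta. TEAD4 with its Hippo-pathway coactivators acts upstream of CDX2 and GATA3, and CDX2, the AP-2 factor TFAP2C, EOMES and ELF5 keep trophoblast stem cells in their state. The CDX genes have a later role in the embryo proper, where they work in the caudal epiblast and tail bud and control posterior Hox genes, and Cdx2 and Cdx1 are later intestinal factors. Embryonic stem cells normally keep Cdx2 low, with OCT4 known as its repressor, and the mouse Elf5 promoter is known to be methylated in them.

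Promoter windows of 300 bases (250 before and 50 after the start, RefSeq, GRCm38.p6) were available for 5 of the 8 genes, Cdx2, Cdx4, Gata3, Gata2 and Elf5, and not for Cdx1, Tfap2c and Tead4. They are shown because the 3 genes that rose during differentiation (Cdx2, Gata3 and Gata2) and 2 that did not (Cdx4 and Elf5) can be read side by side. In the first 4 windows capitals mark the octamer ATGCAAAT, the motif of POU factors such as OCT4, and the palindrome GCCNNNGGC, the motif of AP-2 factors; in the Elf5 window capitals mark each CG. The windows lie at chr5:147307200-147307499 (minus strand), chrX:103321148-103321447 (plus), chr2:9878551-9878850 (minus), chr6:88198414-88198713 (plus) and chr2:103411848-103412147 (plus), in the order printed.
Cdx2: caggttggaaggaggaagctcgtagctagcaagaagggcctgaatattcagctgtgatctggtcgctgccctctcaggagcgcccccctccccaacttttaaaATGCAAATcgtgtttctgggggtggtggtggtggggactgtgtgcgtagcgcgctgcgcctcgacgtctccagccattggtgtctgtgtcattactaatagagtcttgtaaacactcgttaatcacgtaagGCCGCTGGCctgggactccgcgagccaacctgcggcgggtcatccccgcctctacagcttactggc
Cdx4: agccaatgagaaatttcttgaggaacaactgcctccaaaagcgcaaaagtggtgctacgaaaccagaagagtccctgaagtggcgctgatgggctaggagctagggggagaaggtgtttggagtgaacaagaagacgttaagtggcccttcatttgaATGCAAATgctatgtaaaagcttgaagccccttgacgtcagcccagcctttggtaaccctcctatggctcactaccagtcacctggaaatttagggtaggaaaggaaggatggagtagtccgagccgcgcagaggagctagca
Gata3: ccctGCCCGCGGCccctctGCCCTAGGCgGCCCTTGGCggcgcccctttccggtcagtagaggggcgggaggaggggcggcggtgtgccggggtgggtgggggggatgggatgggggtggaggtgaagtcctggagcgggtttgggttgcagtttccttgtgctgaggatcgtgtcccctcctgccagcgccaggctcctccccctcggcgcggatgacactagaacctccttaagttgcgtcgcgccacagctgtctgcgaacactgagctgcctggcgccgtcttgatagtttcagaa
Gata2: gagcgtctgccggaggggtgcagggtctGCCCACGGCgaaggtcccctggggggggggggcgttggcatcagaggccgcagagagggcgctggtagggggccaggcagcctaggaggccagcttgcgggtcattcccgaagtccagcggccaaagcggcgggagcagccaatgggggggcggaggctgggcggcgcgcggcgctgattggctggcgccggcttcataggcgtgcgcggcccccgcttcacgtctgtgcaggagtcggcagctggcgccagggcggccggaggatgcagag
Elf5: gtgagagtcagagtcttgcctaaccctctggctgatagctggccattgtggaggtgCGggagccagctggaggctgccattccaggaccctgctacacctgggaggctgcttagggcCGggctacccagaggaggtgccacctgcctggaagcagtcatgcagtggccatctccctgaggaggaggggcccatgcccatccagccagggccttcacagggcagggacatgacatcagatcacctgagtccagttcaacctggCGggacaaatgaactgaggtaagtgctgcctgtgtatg

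The octamer was present once in the Cdx2 window, 147 bases before the start, and once in the Cdx4 window, 93 bases before it. Of the 32851 RefSeq windows, 1.735% held it on either strand; this motif was chosen after the sequences had been read. The AP-2 palindrome was present once in Cdx2, 16 bases before the start, 3 times in Gata3, at 246, 231 and 221 bases before it, and once in Gata2, 222 bases before it, against 16.59% of all windows with at least 1 match. It did not occur in the Cdx4 or Elf5 window. This motif is rich in G and C, and the G and C share differed between the windows. It was 57.3% in Cdx2, 67.3% in Gata3, 73.7% in Gata2, 50.3% in Cdx4 and 60.7% in Elf5. The median over all windows was 52.7%, and the part of base content in the matches was not tested. These matches overlapped no octamer. The windows were also searched for CDX, GATA, TEAD, ETS, GC box, TATA box and CCAAT box motifs, so the 2 marked motifs are a choice among several. In the printed windows the TEAD motif GGAATG matched in Gata2 and Elf5, and the GC box GGGCGG in Gata3 and Gata2. The CCAAT box matched in Cdx2, Cdx4 and Gata2. The ratio of observed to expected CG pairs was 0.731 in Cdx2, 0.658 in Gata3, 0.76 in Gata2, 0.433 in Cdx4 and 0.11 in Elf5, whose window held 3 CG pairs, against a median of 0.384 over all windows. The windows printed are those at the start the gene table gives; RefSeq has a second one for Elf5, with 10 CG pairs and a ratio of 0.442, and for Gata2, with a ratio of 0.9. A match of letters describes the sequence and is not a measured site.

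Values are scaled reads: reads over a gene's exons and introns, brought by the authors to the same sum in each library. The 3 deepest libraries, all of day 0, hold 26683251 and 21087157 reads (KO replicates 2 and 3) and 30527844 (WT replicate 3), and the other 9 hold 2081129 to 4220140. The ribosomal RNA gene Rn45s, which enters the common sum, took 0.115 to 0.129% of reads in those 3 and 14.8 to 25.1% in the other 9, all of day 10 among them. The 1459 olfactory and vomeronasal receptor genes, which these cells are not known to use, averaged 1.51 scaled reads per kb in WT replicate 3 of day 10 and 1.35 in KO replicate 1 of day 0, against 0.0418 to 0.499 in the others; those 2 libraries are called the libraries with background reads. In replicate 1 of day 0 the 16 fibroblast markers summed to 3247 in KO and 8269 in WT, against 975 to 1603 in the other day 0 libraries. By this sum alone, and by no label, those 2 are called the day 0 libraries with fibroblast reads. KO replicate 1 of day 0 thus bears both names and is absent from both fits that leave such libraries out. The part of background reads in its marker sum was not tested. KO replicates 2 and 3 of day 0 correlate at 0.993 over the tested genes, and all other pairs within a group at 0.816 to 0.963. Ehmt2, the gene of G9a, had 500 to 758 scaled reads in KO and 719 to 1359 in WT at day 10, and 375 to 557 in KO and 987 to 1375 in WT at day 0; the reads do not show the deleted part. The 12 markers of naive pluripotency were all detected in each group and summed to 11855 to 14939 in KO and 4058 to 7834 in WT at day 10, and to 32470 to 41417 in KO and 30262 to 49907 in WT at day 0.

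Of the 8 factors, 3 (Cdx2, Gata3 and Gata2) rose between day 0 and day 10, in KO and in WT alike, and the other 5 were not called in either line. They were 3 of 8 genes called higher in KO, where 2.43% of all 20624 genes were called higher, and 3 of 8 in WT, where 2.02% were (limma, adjusted p below 0.05). The same 3 were called by edgeR (3.7% of genes higher in KO, 3.41% in WT) and by DESeq2 (7.6% and 6.87%) on the recovered reads. None of the 8 was called lower, against 6.46% of all genes in KO and 2.4% in WT. The median log2 change of the 8 was 0.73 in KO and 1.15 in WT, and that of all tested genes was -0.68 in KO and -0.20 in WT. Between KO and WT none of the 8 was called at day 10 or at day 0, where limma called 0% of all genes; edgeR, in whose fit Cdx4 and Elf5 had too few reads to be tested, called 0% of its 14884 genes. Ehmt2, the gene knocked out, was not called either: it was at -1.34 at day 0 (limma adjusted p = 0.993) and -0.80 at day 10 (limma adjusted p = 0.323). A count of 0 between the lines therefore does not show that the lines are alike. Of the 12 naive pluripotency markers, 6 fell in KO and 11 in WT between the days. In bulk RNA a change in the number of cells of a type and a change in RNA per cell cannot be told apart.

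**Figure D1:**
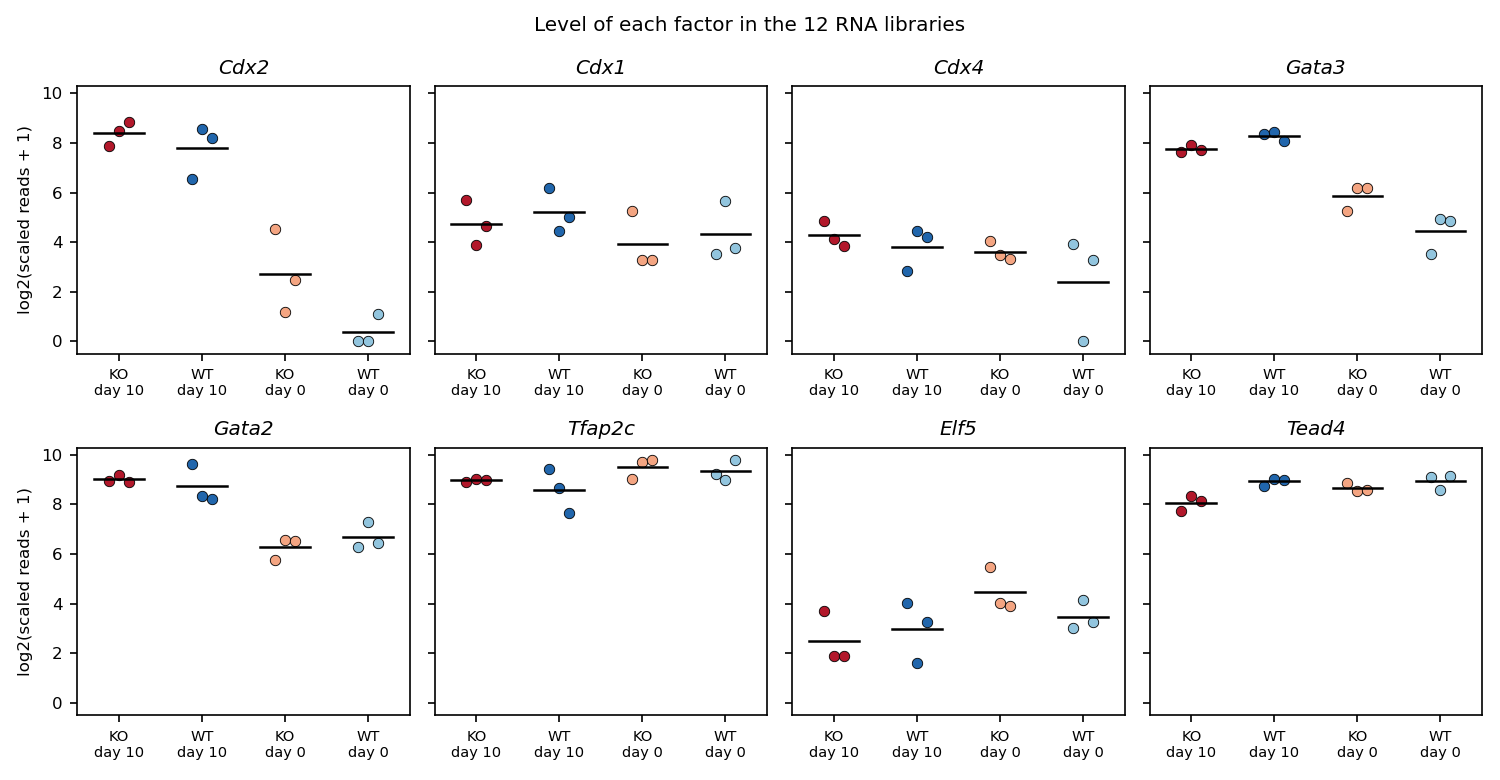
Level of each of the 8 factors in the 12 RNA libraries, as log2 of scaled reads + 1, with each point a library and each bar the mean of 3. Cdx2, Gata3 and Gata2 lie higher in every day 10 library than in any day 0 library, and Tfap2c and Tead4 have high scaled reads throughout. Scaled reads are not divided by gene span, which is 73.7 kb for Tead4 and 9.03 kb for Tfap2c.

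Cdx2 (chromosome 5, 148112476 to 148118825, minus strand, mm9), the homeobox factor of the trophectoderm and the caudal embryo, was almost without reads at day 0. It had 234, 359 and 464 scaled reads in the 3 KO libraries of day 10, and 92.6, 377 and 296 in the WT libraries of day 10. At day 0 it had 21.8, 1.30 and 4.53 in KO, which are 7, 4 and 11 reads, and 0, 0 and 1.14 in WT, which are 0, 0 and 4 reads. The lowest day 10 library of either line lies above the highest day 0 library, and the KO and WT ranges overlap at day 10 but not at day 0. For Cdx2, Gata3 and Gata2 alike no day 10 library of a line reaches down to its day 0 libraries, as for 8.93% of all genes in KO and 6.63% in WT.

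Cdx2 averaged 352 ± 115 in KO and 255 ± 146 in WT at day 10, and 9.21 ± 11.0 in KO and 0.38 ± 0.66 in WT at day 0 (SD, n = 3 each). The log2 change between day 10 and day 0 was 5.68 in KO (SE 0.84, limma adjusted p = 0.00242) and 7.41 in WT (SE 0.84, limma adjusted p = 0.000215). Its size in WT rests on a near-empty day 0: it was 9.88 with a pseudocount of 0.1 and 5.39 with one of 5, both called. The 2 changes differed by -1.73 (SE 1.19, limma adjusted p = 0.677), which did not pass.

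Between the lines at day 0, Cdx2 was at 2.36 on the log2 scale (SE 0.84, limma adjusted p = 0.993), and not called; it was 4.49 with a pseudocount of 0.1 and 1.13 with one of 5. Ranges with KO above WT at day 0 were seen in 5.5% of all genes. The highest KO library, replicate 1, is the one with background reads, and its Cdx2 level of 3.43 scaled reads per kb stands beside 1.35 for the receptor genes. The other KO libraries had 0.205 and 0.713 per kb beside 0.185 and 0.189, and WT had 0, 0 and 0.180 beside 0.499, 0.330 and 0.120. Without the libraries with background reads the difference was 1.47 (limma adjusted p = 0.439). At day 10 it was 0.63 (SE 0.84, limma adjusted p = 0.777).

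Gata3 (chromosome 2, 9778705 to 9800227, minus strand), the GATA factor that acts beside CDX2 in the trophectoderm, rose in both lines and was the one member whose KO and WT ranges were apart at both days, in opposite order. It had 198, 238 and 210 scaled reads in KO and 324, 346 and 267 in WT at day 10. At day 0 it had 37.4, 71.3 and 71.3 in KO and 10.6, 29.2 and 27.9 in WT. The ranges do not overlap at either day: KO lies below WT at day 10, a pattern seen in 12.6% of all genes, and above WT at day 0, seen in 5.5%. At day 0 the order holds among the deep libraries (71.3 and 71.3 in KO, 27.9 in WT) and among the shallow ones (37.4 in KO, 10.6 and 29.2 in WT). The shallow values are 12 reads in KO and 3 and 7 in WT, and per kb they are 1.74 in KO, the library with background reads, beside 1.35 for the receptor genes, and 0.493 and 1.36 in WT beside 0.499 and 0.330. The deep ones are 3.31 and 3.31 per kb in KO beside 0.185 and 0.189, and 1.30 in WT beside 0.120.

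Gata3 averaged 216 ± 20.5 in KO and 312 ± 40.6 in WT at day 10, and 60.0 ± 19.6 in KO and 22.6 ± 10.4 in WT at day 0 (SD, n = 3 each). The log2 change between the days was 1.88 in KO (SE 0.45, limma adjusted p = 0.026) and 3.85 in WT (SE 0.45, limma adjusted p = 0.000258). The call in KO is lost without KO replicate 1, 2 or 3 of day 10 (limma adjusted p = 0.0683, 0.0936 and 0.0956) and without KO replicate 2 or 3 of day 0 (0.0634 and 0.0647). Over all alternatives that adjusted p ran between 2.23e-09 and 0.0956, and the log2 change between 1.58 and 2.31.

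The KO minus WT difference of Gata3 was -0.53 at day 10 (SE 0.45, limma adjusted p = 0.648) and 1.44 at day 0 (SE 0.45, limma adjusted p = 0.993). Neither was called. The change over differentiation differed between the lines by -1.96 (SE 0.63, limma adjusted p = 0.547; edgeR adjusted p = 0.437), which did not pass, while DESeq2 on the recovered reads called it (-1.86, adjusted p = 0.0419), together with 0.487% of genes lower and 0.0609% higher. Over all alternatives the adjusted p of that difference ran between 0.0419 and 0.944. It was the one member with an unadjusted limma p below 0.05 for this difference, against 8.7% of all genes.

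Gata2 (chromosome 6, 88148658 to 88157026, plus strand), a GATA factor of trophoblast and of blood progenitors, was well above background at day 0 and rose further. It had 496, 583 and 483 scaled reads in KO and 781, 325 and 296 in WT at day 10. At day 0 it had 52.9, 92.8 and 92.3 in KO and 77.8, 154 and 85.7 in WT. Every day 10 library lies above every day 0 library, and the KO and WT ranges overlap at both days.

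Gata2 averaged 521 ± 54.6 in KO and 468 ± 272 in WT at day 10, and 79.3 ± 22.9 in KO and 106 ± 42.2 in WT at day 0 (SD, n = 3 each). Its log2 change was 2.74 in KO (SE 0.42, limma adjusted p = 0.00316) and 2.05 in WT (SE 0.42, limma adjusted p = 0.0118). In WT replicate 1 of day 10 is far above the other libraries of its group, and without it the change was 1.61 and missed the threshold (limma adjusted p = 0.0512). It also missed with only the compared groups in the fit (0.0553), and its adjusted p over all alternatives ran between 8.54e-06 and 0.0553. The 2 lines differed in this change by 0.69 (SE 0.59, limma adjusted p = 0.745).

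**Figure D2:**
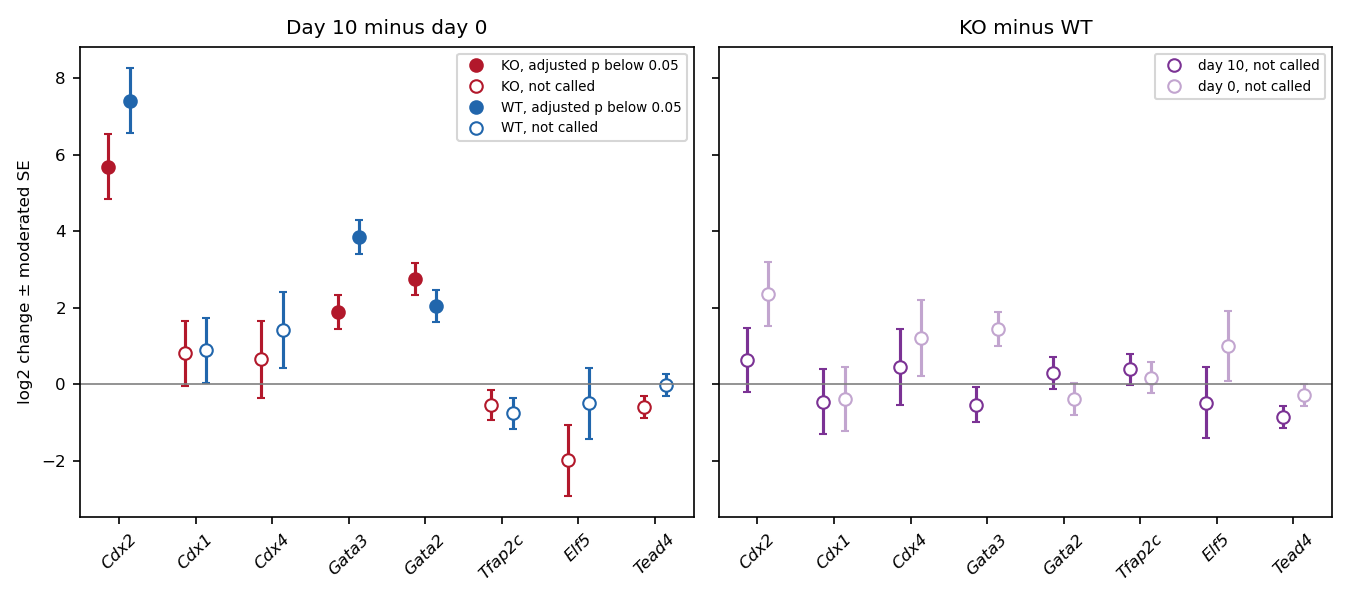
Log2 change of each factor with its moderated standard error, day 10 minus day 0 (left, KO and WT) and KO minus WT (right, day 10 and day 0); filled points passed the adjusted p of 0.05. The filled points are Cdx2, Gata3 and Gata2 on the left, and no point is filled on the right.

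Tfap2c and Tead4, the factors that act early in the trophectoderm programme, were present before differentiation and did not pass between the days. Tfap2c (chromosome 2, 172375093 to 172384121, plus strand), an AP-2 factor also of the germ line, had 476, 526 and 499 scaled reads in KO and 686, 406 and 198 in WT at day 10. At day 0 it had 514, 837 and 893 in KO and 594, 509 and 880 in WT. The ranges of KO and WT overlap at both days, and the WT libraries of day 10 spread most widely. Its log2 change between the days was -0.54 in KO (SE 0.40, limma adjusted p = 0.349) and -0.76 in WT (SE 0.40, limma adjusted p = 0.374), beside all-gene medians of -0.68 and -0.20.

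Tead4 (chromosome 6, 128177161 to 128250831, minus strand), the DNA-binding partner of the Hippo coactivators YAP and TAZ, had 214, 320 and 280 scaled reads in KO and 432, 523 and 503 in WT at day 10. At day 0 it had 470, 373 and 381 in KO and 552, 380 and 565 in WT. At day 10 every KO library lies below every WT library, as it does for 12.6% of all genes, and at day 0 the ranges overlap. The KO minus WT difference was -0.85 at day 10 (SE 0.28, limma adjusted p = 0.259), where the median of all genes was -0.26, and -0.28 at day 0 (SE 0.28, limma adjusted p = 0.993). Under all alternatives the day 10 difference kept its sign, between -0.98 and -0.69, with an adjusted p of 0.102 or more. Between the days Tead4 was at -0.60 in KO (SE 0.28, limma adjusted p = 0.157) and -0.02 in WT (SE 0.28, limma adjusted p = 0.984), and the WT value changes sign with TMM scaling. The KO ranges of the 2 days do not overlap, which is so, with day 10 lower, for 36.5% of all genes.

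Counts of members at an unadjusted limma p below 0.05 in KO against WT were 1 of 8 at day 10 (Tead4), where 11.9% of all genes were below it, and 2 of 8 at day 0 (Cdx2 and Gata3), where 3.82% were. DESeq2 on the recovered reads called none of the 8 in either, against 0.705% of genes higher and 2.54% lower at day 10, and 0.0474% in each direction at day 0.

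Cdx1, Cdx4 and Elf5 had few reads in all groups and none was called. Cdx1, a caudal and intestinal homeobox factor, averaged 29.8 ± 19.5 scaled reads in KO and 41.1 ± 26.5 in WT at day 10, and 18.3 ± 16.5 in KO and 24.4 ± 22.3 in WT at day 0 (SD, n = 3 each). These means rest on 27, 44, 60 and 59 reads, in that order of groups, and all ranges overlap. Cdx4 (chromosome X, 100516737 to 100525563, plus strand), a caudal factor that acts with CDX2 in axis growth and blood formation, averaged 19.2 ± 7.54 in KO and 14.7 ± 7.54 in WT at day 10, and 11.6 ± 3.50 in KO and 7.66 ± 7.15 in WT at day 0. It had 18, 18, 58 and 35 reads in the same order, and 0 reads in 1 WT library of day 0. The log2 changes between the days were 0.81 for Cdx1 and 0.66 for Cdx4 in KO, and 0.89 and 1.42 in WT, with limma adjusted p-values between 0.509 and 0.674.

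Elf5 (chromosome 2, 103252255 to 103291145, plus strand), the ETS factor that holds trophoblast stem cells in their state, had the lowest level of the 8 per kb at day 10 and few reads at either day. It had 3, 1 and 1 reads in KO and 5, 1 and 3 in WT at day 10, and 14, 47 and 34 reads in KO and 2, 4 and 30 in WT at day 0, where some libraries are deeper. Per kb it averaged 0.149 in KO and 0.224 in WT at day 10 and 0.625 in KO and 0.277 in WT at day 0, beside 0.0559, 0.556, 0.575 and 0.316 for the receptor genes in the same groups. Its log2 change was -1.98 in KO (SE 0.93, limma adjusted p = 0.155) and -0.50 in WT (SE 0.93, limma adjusted p = 0.861). In KO all day 10 libraries lie below those of day 0, again as for 36.5% of all genes. The background reads moved the same way in KO, and their part in this value was not tested.

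**Figure D3:**
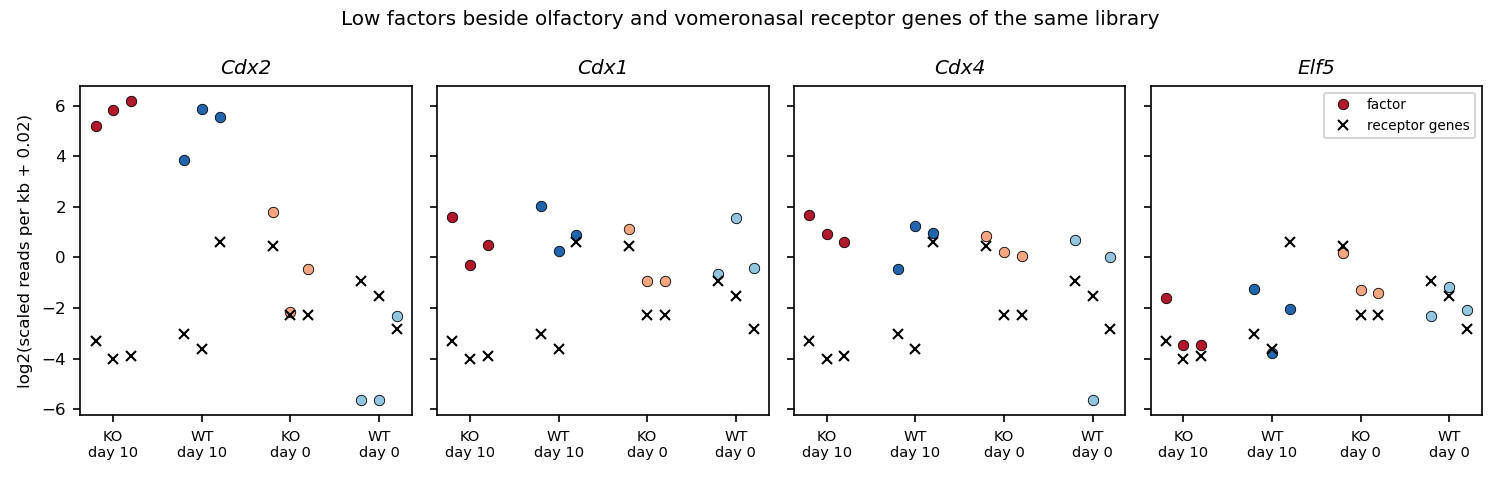
Cdx2, Cdx1, Cdx4 and Elf5 per library, as log2 of scaled reads per kb of gene body + 0.02, beside the mean over 1459 olfactory and vomeronasal receptor genes of the same library (crosses). Cdx2 lies far above the crosses at day 10, and at day 0 it lies above them in 4 libraries and is at 0 in 2; Elf5 lies above the cross in some libraries and below it in others.

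Per kb of gene body, the order of the factors changed with the day. The spans run between 6.35 kb for Cdx2 and 73.7 kb for Tead4, with introns included, so this order depends on the division by span. By scaled reads at day 10, Tead4 in WT (486) lay above Gata3 (312) and Cdx2 (255). In KO Tead4 (272) lay above Gata3 (216) and below Cdx2 (352). At day 10 Gata2, Cdx2 and Tfap2c formed the top group, at means of 62.2 ± 6.53, 55.5 ± 18.1 and 55.4 ± 2.75 scaled reads per kb in KO and 55.9 ± 32.5, 40.2 ± 23.1 and 47.6 ± 27.1 in WT (SD, n = 3 each, as for all such values); these 3 do not differ beyond their spread. Gata3 followed at 10.0 ± 0.95 in KO and 14.5 ± 1.89 in WT, and Tead4 at 3.69 ± 0.73 in KO and 6.60 ± 0.65 in WT. At day 0 Tfap2c alone led, at 82.8 ± 22.7 in KO and 73.2 ± 21.5 in WT, with Gata2 next at 9.48 ± 2.73 in KO and 12.7 ± 5.04 in WT. Tead4 was then at 5.54 ± 0.73 in KO and 6.77 ± 1.40 in WT, and Gata3 at 2.79 ± 0.91 and 1.05 ± 0.48. Cdx2 was at 1.45 ± 1.74 in KO and 0.060 ± 0.10 in WT. Cdx4 and Cdx1 lay between 0.868 and 2.37 per kb in each group mean, and Elf5 lay below 0.63.

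Across the 12 libraries the 3 factors that rose had alike patterns on the log2 scale: Pearson's r was 0.899 for Cdx2 with Gata3, 0.848 for Gata3 with Gata2 and 0.792 for Cdx2 with Gata2. The other pairs ran between -0.582 (Cdx2 with Tfap2c) and 0.572 (Cdx2 with Cdx4). Among the measured genes the patterns most like Cdx2 were those of Vstm2b (r = 0.96), Magel2 (0.957) and Tbx20 (0.954), and those most like Gata3 were Ptpn13 (0.983), Efnb2 (0.978) and Vnn1 (0.964). Those most like Gata2 were Cnn2 (0.973), Krt18 (0.972) and Dlx3 (0.971). Those most like Tfap2c were Utf1 (0.962), Tubb2b (0.953) and Nop16 (0.952), and the 3 nearest to Tead4 were Hacl1 (0.931), Pigg (0.924) and Cacnb1 (0.907). For the low factors the highest were Psd for Cdx1 (0.929), Rsph3a for Cdx4 (0.918) and Pitx3 for Elf5 (0.883). These correlations are descriptions over 12 libraries that share day, line, depth and the common total.

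Of 19 other genes of the trophoblast stem cell and trophectoderm list, 7 rose and 0 fell in KO (median log2 change 0.99) and 8 rose and 0 fell in WT (1.54), beside all-gene medians of -0.68 and -0.20. Of all genes 2.43% rose and 6.46% fell in KO, and 2.02% and 2.4% in WT. Krt8, a keratin of simple epithelia and trophectoderm, averaged 3175 ± 676 in KO and 3061 ± 1391 in WT at day 10, against 17.2 ± 2.35 in KO and 47.5 ± 2.27 in WT at day 0. Its log2 change was 7.43 in KO (limma adjusted p = 1.05e-07) and 5.86 in WT (limma adjusted p = 2.42e-06). Its partner keratin Krt18 rose by 7.02 in KO and 6.00 in WT, and Hand1, a factor of trophoblast giant cells and of mesoderm, by 5.98 and 5.09. Lrp2, the endocytic receptor megalin, rose by 2.08 in KO and 3.56 in WT. Eomes, whose protein was named above as a keeper of trophoblast stem cells, is in this list and was not called between the days in either line. Fgfr2, the FGF receptor of trophoblast stem cells, rose in WT (2.04, limma adjusted p = 0.00129) and was at 0.62 in KO (limma adjusted p = 0.158); the difference of these changes, -1.42, did not pass (limma adjusted p = 0.547).

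Of 17 genes of differentiated placental trophoblast 14 were tested. In KO 2 rose (Flt1 and Mmp9) and in WT 1 rose (Flt1), and 0 fell in either. The medians were -0.73 in KO and 0.75 in WT, beside -0.68 and -0.20 over all genes. Of all genes 2.43% rose and 6.46% fell in KO, and 2.02% and 2.4% in WT. Flt1, a VEGF receptor of trophoblast and also of endothelium, averaged 576 ± 50.1 in KO and 1080 ± 165 in WT at day 10, against 114 ± 82.4 in KO and 147 ± 89.2 in WT at day 0. Mmp9, a matrix protease of giant cells and of other invasive cells, rose by 2.99 in KO (limma adjusted p = 0.0147) and was at 1.48 in WT (limma adjusted p = 0.226). The syncytin gene Syna had 28.9 ± 18.5 scaled reads in KO and 5.08 ± 1.91 in WT at day 10, and the difference of 2.06 was not called (limma adjusted p = 0.431).

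Of 18 genes of the caudal epiblast and posterior growth, 9 rose and 0 fell in each line, with medians of 3.04 in KO and 2.95 in WT. The all-gene medians were -0.68 and -0.20, and 2.43% of all genes rose in KO and 2.02% in WT. T, the brachyury gene of the primitive streak, averaged 419 ± 124 in KO and 416 ± 28.1 in WT at day 10, against 8.38 ± 3.53 in KO and 11.8 ± 11.6 in WT at day 0, with a log2 change of 5.51 in KO (limma adjusted p = 0.000202) and 5.42 in WT (limma adjusted p = 0.000167). Fgf8, the growth factor of the caudal end, rose by 5.62 in KO and 5.54 in WT, the caudal homeobox gene Evx1 by 3.93 and 4.14, and the WNT target Axin2 by 3.39 and 2.70. Nkx1-2, a homeobox gene of the caudal lateral epiblast, rose by 4.31 in KO (limma adjusted p = 0.0223) and was at 1.08 in WT (limma adjusted p = 0.653). Its KO minus WT difference at day 10 was 3.14 (SE 0.98, limma adjusted p = 0.241) and was not called.

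Posterior Hox genes, which CDX factors control in the embryo, held 2 of 19 that rose in KO (Hoxb8 and Hoxa11) and 0 of 19 in WT, with 0 lower in either. Of all genes 2.43% rose in KO and 2.02% in WT. Hoxb8 averaged 25.1 ± 9.38 in KO and 4.32 ± 1.34 in WT at day 10, and 1.58 ± 1.56 in KO and 0 in WT at day 0. These are few reads: in the WT libraries of day 10, 3 reads are 6.18 to 9.26 scaled reads, above the Hoxb8 mean. Hoxa11 averaged 103 ± 61.8 in KO and 22.9 ± 17.8 in WT at day 10. Of the 19 genes 17 had a KO minus WT value above 0 at day 10 (median 1.82, all genes -0.26), and 0 were called. Hoxb9, with the smallest adjusted p there, was at 2.02 (SE 0.50, limma adjusted p = 0.204), and 0 of the 19 were called for the difference of the changes.

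Of 17 genes of the intestine, the later tissue of CDX2 and CDX1, 16 were tested; 0 were called higher in either line, 2 were lower in KO and 1 in WT, with medians of -1.84 and -1.01. Over all genes 6.46% were lower in KO and 2.4% in WT, with medians of -0.68 and -0.20. Gpa33, an intestinal surface antigen that these cells already held, fell by 1.89 in KO (limma adjusted p = 0.0123), to 102 ± 6.64 against 384 ± 66.4 at day 0, and by 3.03 in WT (limma adjusted p = 0.000451), to 43.7 ± 20.0 against 348 ± 85.4. Slc5a1, a glucose carrier, fell by 2.96 in KO (limma adjusted p = 0.0461).

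Of the Hippo pathway and the genes around TEAD4, 5 of 20 rose in KO and 8 in WT, with 0 lower and medians of 0.84 and 0.67. The all-gene medians were -0.68 and -0.20, and 2.43% of all genes rose in KO and 2.02% in WT. Amot, the angiomotin that holds YAP out of the nucleus, averaged 4440 ± 1409 in KO and 3091 ± 2048 in WT at day 10, against 117 ± 10.4 in KO and 120 ± 22.3 in WT at day 0. Its log2 change was 5.19 in KO (limma adjusted p = 3.72e-05) and 4.45 in WT (limma adjusted p = 8.13e-05). Amotl2, of the same family, rose by 1.98 in KO and 3.03 in WT, and Tead3, a paralog of Tead4, by 2.17 and 1.66. Lats2, a kinase that inactivates YAP, rose in WT (2.36, limma adjusted p = 0.00318) and was at 1.10 in KO (limma adjusted p = 0.0802).

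Of 19 GATA family, blood and endothelial genes 17 were tested; Gata4, the heart and endoderm member, rose in KO (1.95, limma adjusted p = 0.0379), and 0 of 17 were called in WT. Gata1, the erythroid member, fell by 4.42 in KO (limma adjusted p = 0.0139), and Erg, an endothelial ETS gene, fell by 4.96 (limma adjusted p = 0.0314). The medians of the 17 were -1.13 in KO and 0.16 in WT. Of 15 AP-2 family and surface ectoderm genes 3 rose and 0 fell in KO, and 4 rose and 1 fell in WT, with medians of 0.50 and 1.09. The homeobox gene Msx1 rose by 5.72 in KO and 4.72 in WT, its paralog Msx2 by 2.80 and 3.51, and Cited2, a coactivator of AP-2, by 2.07 and 2.61. Of 11 ELF and ETS genes 2 fell in KO (Ehf and Elf4), and in WT 1 rose (Ets1) and 1 fell (Etv4), with medians of -0.30 and -0.11. Beside these 3 lists, 2.43% of all genes rose and 6.46% fell in KO, and 2.02% and 2.4% in WT. The all-gene medians were -0.68 and -0.20. Tfap2a and Ets2 stand in 2 lists each. Erg and Ehf had 3.60 scaled reads each in KO at day 10, and the receptor genes were lower in that group too (0.0559 per kb, against 0.575 in KO at day 0); the part of background reads in these calls was not tested.

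Markers of other cell types were read beside these groups, and their part in the changes was not tested. Between the days 2.43% of all genes rose and 6.46% fell in KO, and 2.02% and 2.4% in WT. The 16 fibroblast markers summed to 3872 to 11930 in KO and 2260 to 7036 in WT at day 10, and to 975 to 3247 in KO and 1088 to 8269 in WT at day 0; 2 rose and 2 fell in KO, and 0 rose and 1 fell in WT, with Dcn and Fap at 0 in KO at day 10 and Lum at 0 in WT at day 0. The 10 endoderm markers summed to 234 to 399 in KO and 313 to 1368 in WT at day 10, and to 353 to 903 in KO and 156 to 318 in WT at day 0; 0 were called in KO and 1 rose in WT (Dab2). The 8 neural markers summed to 750 to 1366 in KO and 471 to 585 in WT at day 10, and to 1105 to 1760 in KO and 706 to 1276 in WT at day 0; 0 were called in KO and 1 fell in WT (Tubb3), and Neurog2 was at 0 in both lines at day 10. The naive pluripotency markers were above 0 in KO minus WT at day 10 in 12 of 12 genes (median 1.11, all genes -0.26), with 0 called. With limma none of the genes of any list was called between KO and WT at either day, or for the difference of the changes, and neither was any other gene (0%).

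H3K9ac, an acetyl mark of active promoters, was listed within 1 kb of the start of 5 of the 8 genes in KO and 5 in WT at day 10, and of 2 in KO and 4 in WT at day 0. Among all 24016 genes such peaks were listed for 52.1% and 50.8% at day 10, and for 40% and 49.7% at day 0. There was 1 sample per group, so the values have no replicate check. The lists reach down to a -log10 p of 2.00, and among these promoter peaks only that of Tead4 in WT at day 10 has a q below 0.05. The other peaks of the 8 genes are weak calls, so their presence or absence in a list is uncertain. Peaks were called per sample by the authors, and fold enrichment and -log10 q are the authors' values per peak.

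Among the 4 lists Cdx2 had a promoter peak in KO at day 10 alone, at chr5:148114771-148118717 (mm9, 3947 bases, fold 2.77). Gata3 had one in KO and in WT at day 10 (fold 2.62 and 3.09) and none listed at day 0. Gata2 had one in KO and WT at day 10 (2.93 and 2.75) and in WT at day 0 (2.79). For Tfap2c a broad peak was listed in KO and WT at day 10 (6079 and 7817 bases, fold 2.96 and 3.00) and none at day 0, while its RNA was present at both days. Tead4 had a peak in all 4 lists, with a fold of 2.99 in KO and 3.99 in WT at day 10 and 2.42 in KO and 3.19 in WT at day 0. Elf5 had none in any list, Cdx1 had one in WT at both days, and Cdx4 had one in KO and WT at day 0. These contrasts hold for the 1 kb window. Over the gene and 10 kb upstream, Cdx2 also had 1 peak in WT at day 10 (fold 2.47) and 0 at day 0. Over that stretch at day 0, Gata3 had 2 peaks in WT and 0 in KO, and Tfap2c had 4 in WT and 1 in KO. Elf5 had 2 there in each line at day 0, and 1 in KO and 0 in WT at day 10.

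The -log10 q was 2.47 for Tead4 in WT at day 10 and between 0.0543 and 1.01 for the others, and none of the 8 genes had a promoter peak of -log10 q 5 or more in any list, against 10.6% of all genes in KO and 9.64% in WT at day 10, and 1.6% in KO and 0.275% in WT at day 0. The fold of each member's peak was below the median fold of genes with a promoter peak in its list (3.80 in KO and 3.89 in WT at day 10, 3.10 in KO and 2.86 in WT at day 0), except Tead4 in WT at both days and Cdx4 in WT at day 0.

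**Figure D4:**
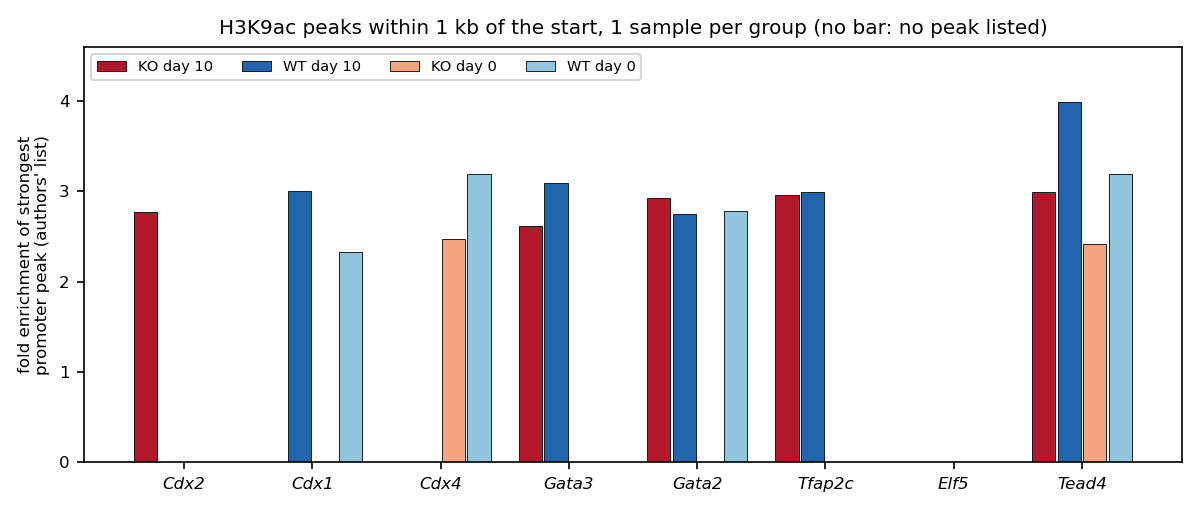
Fold enrichment of the strongest H3K9ac peak within 1 kb of each factor's start in the authors' 4 peak lists, with 1 sample per group; no bar means that no peak was listed. Tead4 has a bar in all 4 groups and Elf5 in none, and the Gata3 and Tfap2c bars are those of day 10.

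The lines carry distinguishable alleles, named mus and cas in the authors' table, and the 3 factors with reads of both can be followed by allele. Gata3 reads were 44.1% mus in KO (59 allelic reads) and 64.0% in WT (100) at day 10, and 84.4% in KO (122) and 76.9% in WT (39) at day 0. By library, with at least 10 allelic reads, the shares were 26.7, 46.2 and 55.6% in KO and 65.4, 67.9 and 52.4% in WT at day 10, and 84.4 and 83.6% in KO replicates 2 and 3 and 80.6% in WT replicate 3 at day 0. The day 0 shares by library come from the 3 deep libraries alone, and every day 10 share lies below them. All day 10 libraries are shallow, so day and depth cannot be told apart here. How many other genes show such an order of shares was not counted. Their Wilson 95% intervals are 73.6 to 91.3%, 71.7 to 91.1% and 65.0 to 90.2% at day 0, and the day 10 intervals reach 80.6%; they cover counting error only.

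Cdx2 reads were 40.0% mus in KO (110 allelic reads) and 47.4% in WT (78) at day 10, and at day 0 only 5 allelic reads were present. Its libraries of day 10 ran between 14.3% (14 reads) and 48.8% in KO and between 43.2% and 57.7% in WT. Tfap2c reads were 57.9% mus in KO (252) and 56.3% in WT (238) at day 10, and 61.2% in KO (2128) and 68.5% in WT (1558) at day 0. Tead4, Gata2, Elf5 and Cdx1 carried nearly all reads on mus over the 12 libraries: 99.3% of 2339, 98.4% of 124, 98.8% of 81 and all of 87. On chromosome 6, which holds Tead4 and Gata2, 502 of 711 genes with at least 100 allelic reads were above 95% mus, and on chromosome 2, which holds Elf5, Gata3 and Tfap2c, 519 of 1040 were. Cdx4 had 22 allelic reads in all, 11 on each allele.

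**Figure D5:**
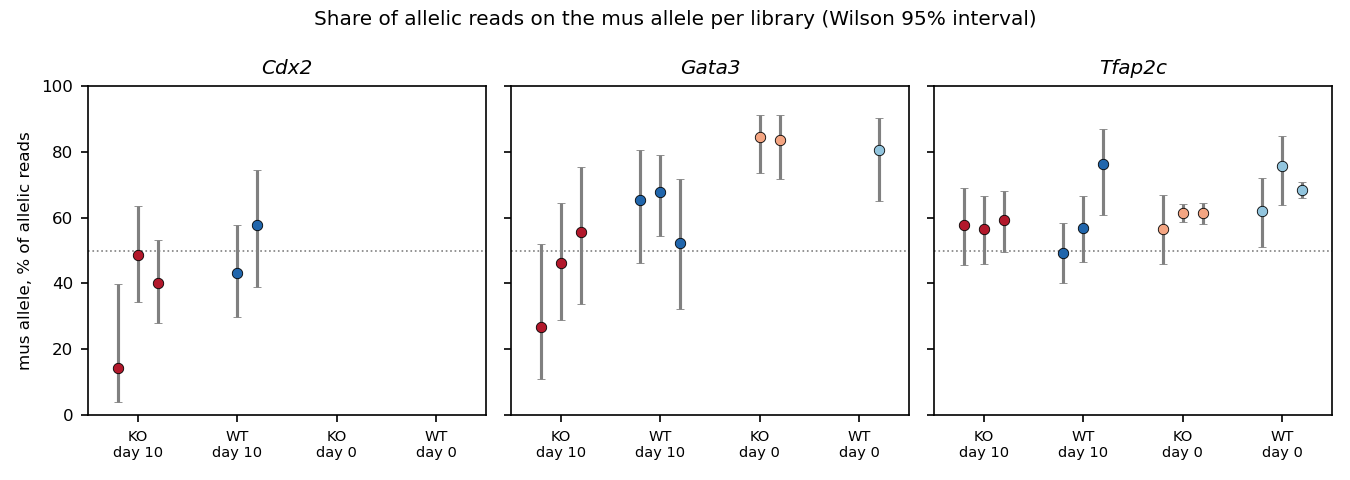
Share of allelic reads on the mus allele for Cdx2, Gata3 and Tfap2c in each library with at least 10 such reads, with Wilson 95% intervals. The Gata3 shares at day 0 are 80.6 to 84.4%, and at day 10 they are 26.7 to 67.9%.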

How the data were processed

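Total RNA (RNeasy, Ribo-Zero) of 12 libraries and 4 H3K9ac ChIP samples were used; H3K9me2 and input samples were not. The submitters' processing notes name TopHat and HOMER for RNA, Novoalign and MACS2 for ChIP, and the build mm9, with no versions. Whether counting used strand is not given in the sources used here, so reads of an overlapping antisense gene cannot be told apart from those of the 8 factors. The gene table deposited by the authors holds a signal, reads per gene body scaled to a common total, and log2 fold changes and p-values of the authors' own comparisons, which are not used here. Counts per allele (mus, cas) come from a second table that the authors deposited. Each peak of the authors' lists has a fold, a -log10 p and a -log10 q, per the file headers. Every value of each library was a whole number of reads times 1 factor (100% within 0.006 scaled reads), so reads were recovered.

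Genes above 1 scaled read in at least 3 of 12 libraries (20624) were tested with limma 3.58.1 in R 4.3.3 (trend, robust) on log2(scaled reads + 1), with all 12 libraries in 1 fit and Benjamini-Hochberg adjustment over all tested genes at 0.05; 2-sided; a log2 change on this scale understates that of low genes. SE is limma's moderated standard error. As alternatives the recovered reads went into edgeR 4.0.16 (quasi-likelihood test with TMM, on 14884 genes) and into DESeq2 1.42.0. Further alternatives were TMM scaling, pseudocounts of 0.1 and 5, no filter and a filter of 10, only the compared groups, a depth term, a replicate block, the fits without the libraries with background or fibroblast reads, and each library left out in turn. The labels' donor field gives each RNA library a number of its own, so the replicate numbers were not used as pairs.

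Likeness was Pearson's r over 12 libraries among genes with a mean above 10 scaled reads, 3 genes a member, without predicted genes and clone names. From each list up to 4 genes passing between the days and up to 2 between the lines, with the smallest adjusted p, could be named. Eomes was named in addition. The 8 genes, the lists and the rules were chosen with earlier results of these data known. Promoters were taken as 1 kb either side of the start. Promoter sequences are RefSeq windows of GRCm38.p6, matched by symbol and start; motifs were searched on both strands as exact letters. Intervals are Wilson 95% with Python 3.11.15 and scipy 1.17.1; figures used matplotlib 3.10.9.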

Additional observations from a re-analysis of the deposited data

How the results depend on the processing

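The count of factors called between the days was 3 in KO and 3 in WT, and it was 2 or 3 in each line under 24 alternatives; the genes lost were Gata3 in KO and Gata2 in WT, as given above. Between the lines it was 0 at both days in all 24. The count for the difference of the changes was 1 with DESeq2 (Gata3) and 0 otherwise. With the replicate number as a block the counts were 3 in KO, 3 in WT, and 0 for KO against WT at each day and for the difference of the changes, so the block changed no call; same-numbered libraries correlated between -0.578 and 0.579 in their deviations from the group means. TMM scaling set the median change of all genes between the days at -0.38 in KO and -0.07 in WT, against -0.68 and -0.20 under the common total, and the genes called were then 762 higher and 846 lower in KO and 477 and 344 in WT, against 502 and 1332, and 417 and 494. The count of all genes called between the days was 1834 in KO, between 199 (without KO replicate 3 of day 10) and 5390 (without the libraries with background reads), and 911 in WT, between 396 (only the compared groups) and 2127 (without the day 0 libraries with fibroblast reads). Between the lines DESeq2 called 548 genes at day 10 and 16 at day 0, and 90 for the difference of the changes, against 0 with limma; limma called 111 at day 10 with a pseudocount of 0.1 and 41 with a depth term, none of them among the 8.

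With peaks of -log10 q 5 or more the count of factors with a promoter peak was 0 in all 4 lists. With a window of 250 bases it was 1 in KO and 1 in WT at day 0, and with an overlap of at least 200 bases it was 2 in WT at day 0. Over these settings and a window of 2.5 kb the count ran between 0 and 5 in WT at day 0. It had the same range in each line at day 10, and ran between 0 and 2 in KO at day 0.

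Values of factors not called changed sign in these cases, and the cause was not tested. With a depth term Cdx1 was at 0.13 and Tfap2c at -0.046 in KO against WT at day 0, and Cdx1 at -0.13 between the days in KO. Without the libraries with background reads Tfap2c was at -0.077 in KO against WT at day 10 and at -0.50 for the difference of the changes. Tead4 between the days in WT was at 0.13 with TMM, 0.065 without the day 0 libraries with fibroblast reads, 0.04 with edgeR and 0.17 with DESeq2. The difference of the changes of Cdx1 was 0.09 with TMM, 0.49 without the libraries with background reads, 0.98 without those with fibroblast reads, 0.032 with edgeR and 0.005 with DESeq2. With 1 library left out, KO against WT ran between -1.04 and 0.29 for Cdx1 at day 0, and at day 10 between -0.94 and 0.021 for Cdx1, -0.036 and 0.76 for Cdx4, -0.077 and 0.82 for Tfap2c, and -1.16 and 0.054 for Elf5. Between the days in WT it ran between -1.03 and 0.18 for Elf5 and -0.20 and 0.081 for Tead4, and the difference of the changes between -0.75 and 0.58 for Cdx1, -1.52 and 0.44 for Cdx4, and -0.25 and 0.64 for Tfap2c.

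The low factors rest on few reads: 3 reads are 6.18 to 11.9 scaled reads in the libraries of day 10. Differences of Elf5, Cdx4 and Cdx1 of the size seen did not pass, and the part of depth in this was not tested. The deep libraries are all of day 0; with a depth term the count of factors called between the days was 3 in each line.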
